A study of Rattus norvegicus with 125 samples.

Results

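The cytochrome P450 genes are described here in 5 organs of rats that had breathed phosphine (PH3) or air. A gene was taken as a member where its symbol in the platform annotation is Cyp, a family number, a letter and a digit, as in Cyp4a8, with Cyp51 left out. This gave 54 of 13439 genes, measured by 60 of the 19069 probe sets that carry 1 gene symbol, and each gene was read from its probe set with the highest mean. They were grouped by symbol, as a rough guide to main role. In these groups 29 belong to families 1 to 3 without Cyp2u1 (chiefly drugs and other foreign compounds). Some of the 29, such as Cyp2c23 and Cyp2j3, are described below as acting on arachidonic acid. A further 10 act chiefly on fatty acids, Cyp2u1 among them, 6 on sterols and bile acids, 5 on steroid hormones and 3 on vitamins. Cyp20a1 has no class.

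P450 enzymes are haem proteins that insert oxygen into their substrates, drawing electrons from Por in the endoplasmic reticulum or from Fdx1 in mitochondria. The liver is the main site of drug and bile acid metabolism, kidney and lung hold forms of their own, and the adrenal and gonads use P450 enzymes to make steroids. Many members are switched by receptors that bind small molecules, among them Ahr (Cyp1a1), Nr1i2 and Nr1i3 (Cyp2b and Cyp3a) and Ppara (Cyp4a).

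All rats were adult male Sprague-Dawley rats with free access to chow, and the labels name no engineered allele. PH3 rats breathed 387 ppm phosphine for 40 min with the whole body exposed (15480 ppm×min), and the comparison rats, labelled Air, breathed air. All were killed under ketamine and xylazine, and RNA came from powdered frozen organ, so each array averages all cells of the sample and fewer cells of a type cannot be told apart from less RNA per cell. The 125 arrays came from 48 rats by label number, and many rats gave more than 1 organ. Brain, heart and kidney were taken 1, 3, 6 and 24 h after exposure, lung after 3 h, 24 h and 1 week, and liver after 6 h, with PH3 livers alone after 3 h. Most groups had 4 rats. Air heart at 24 h and Air lung at 3 h had 2, and PH3 heart at 24 h, PH3 liver at 3 h and PH3 lung at 1 week had 3.

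Levels are log2 signals, given as mean ± SD over rats. A change is the mean log2 signal of PH3 rats less that of Air rats, with the standard error (±) from limma, a linear model fitted to all arrays of an organ. Adjusted p-values are Benjamini-Hochberg values of limma over all 13439 genes, and a gene passed where this was under 0.05.

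The organs matched their markers. In Air rats the 17 measured hepatocyte markers (such as Alb and Apoa1, none of them P450 genes) averaged 13.14 in liver and at most 6.07 elsewhere. Cardiomyocyte markers averaged 13.23 in heart, alveolar markers 12.94 in lung, proximal tubule markers 10.59 in kidney and neuron markers 10.32 in brain. On 11 arrays outside the liver (7 of brain, 2 of heart, 1 of kidney and 1 of lung) the hepatocyte mean stood more than 1 above the organ's median. For changes named below in groups that hold such an array, the value without these arrays is given where it differs by more than 1.5 times or in sign, or where the call changes.

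The 250 bases upstream of the annotated start are shown for 4 members that the results below turn on: Cyp4a8, which rose in liver after PH3, its relative Cyp4a3, the male liver gene Cyp2c11 and the brain gene Cyp46a1. They are RefSeq sequences on GRCr8, and such a sequence was at hand for 43 of the 54 members. Capitals mark the longest run of letters shared by Cyp4a8 and Cyp4a3, TATAAA in Cyp2c11, and every CG in Cyp46a1.
Cyp4a8 (chr5:133970227-133970476, minus strand): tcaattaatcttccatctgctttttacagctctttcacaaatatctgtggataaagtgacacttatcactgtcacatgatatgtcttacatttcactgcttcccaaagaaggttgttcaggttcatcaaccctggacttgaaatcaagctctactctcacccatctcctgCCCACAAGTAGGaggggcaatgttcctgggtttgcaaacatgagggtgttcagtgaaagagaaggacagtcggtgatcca
Cyp4a3 (chr5:134352237-134352486, minus strand): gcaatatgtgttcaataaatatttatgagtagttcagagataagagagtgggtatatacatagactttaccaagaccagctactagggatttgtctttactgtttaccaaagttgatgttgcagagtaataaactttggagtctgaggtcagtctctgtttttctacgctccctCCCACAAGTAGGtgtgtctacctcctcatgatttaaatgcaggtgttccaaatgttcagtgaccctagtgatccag
Cyp2c11 (chr1:246174966-246175215, plus strand): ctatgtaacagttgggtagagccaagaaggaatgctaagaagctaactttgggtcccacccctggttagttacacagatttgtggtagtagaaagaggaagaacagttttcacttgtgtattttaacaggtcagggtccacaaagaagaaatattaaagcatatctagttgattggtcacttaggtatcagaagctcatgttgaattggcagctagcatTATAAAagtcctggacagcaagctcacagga
Cyp46a1 (chr6:133011740-133011989, plus strand): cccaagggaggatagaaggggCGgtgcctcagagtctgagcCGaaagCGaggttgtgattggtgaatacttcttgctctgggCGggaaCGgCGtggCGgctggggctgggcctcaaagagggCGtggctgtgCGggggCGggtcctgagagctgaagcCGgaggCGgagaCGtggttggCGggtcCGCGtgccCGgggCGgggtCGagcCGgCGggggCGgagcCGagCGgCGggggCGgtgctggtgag

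The 12 bases that Cyp4a8 and Cyp4a3 share, CCCACAAGTAGG, begin 80 and 76 bases before the start, and 4 of all 27457 upstream sequences hold them. In Cyp2c11 TATAAA begins 31 bases before the start. On the gene's own strand TATAAA was found in 10 of the 43 member sequences (23.3%) and in 8.38% of all upstream sequences of the same length, and on either strand in 12 (27.9%) against 13.1%. AGGTCA, a core motif of nuclear receptors, was found on either strand in 15 (34.9%) against 13.7%, and a direct repeat of it with any 1 base between, a longer motif that contains it, in 0 against 0.0546%. Cyp46a1 holds 26 CG pairs and Cyp2c11 holds 0. The 27 members highest in liver had a median of 2 CG pairs and 47.2% GC, against 6 and 52% over all upstream sequences. A match describes letters, not a bound site. On GRCr8, 34 of the 54 members lie next to another P450 gene: Cyp4a8 lies between Cyp4x1 and Cyp4a2, and Cyp4a1 between Cyp4a3 and Cyp4b1.

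Control rats show in which organ each transcript was most abundant. Each gene was compared with itself between organs, over 16 Air arrays of brain, 14 of heart, 16 of kidney, 4 of liver and 10 of lung. Liver was the highest organ for 36 of the 54 members against 23.2% of all genes, lung for 8, heart for 4, kidney for 4 and brain for 2. The highest organ exceeded all 4 others (limma, adjusted p under 0.05) for 46 members, 32 of them liver genes, against 66.4% of all genes, with 12.9% for liver.

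Differences between organs were common among all genes, so the members' counts are read beside that background. Liver exceeded lung for 37 members and fell below it for 7, against 33% and 37.6% of all genes, and the median difference was 3.26 against 0.01. Kidney exceeded liver for 8 members and fell below it for 39 (33.9% and 27.4%). Brain exceeded liver for 4 and fell below it for 44 (34.3% and 44.3%), and for heart these numbers were 6 and 41 (33.4% and 31.6%).

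Among the other organs kidney had the most members on its side. Brain exceeded kidney for 7 members and fell below it for 34 (32.4% and 50.4% of all genes), and heart did so for 8 and 24 (36.5% and 37.9%). Kidney exceeded lung for 23 and fell below it for 14 (34.2% and 36.1%). Brain against heart gave 12 higher and 18 lower (34.7% and 47.5%), brain against lung 6 and 19 (32.1% and 44.3%), and heart against lung 9 and 17 (34.1% and 41.8%).

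**Figure D1:**
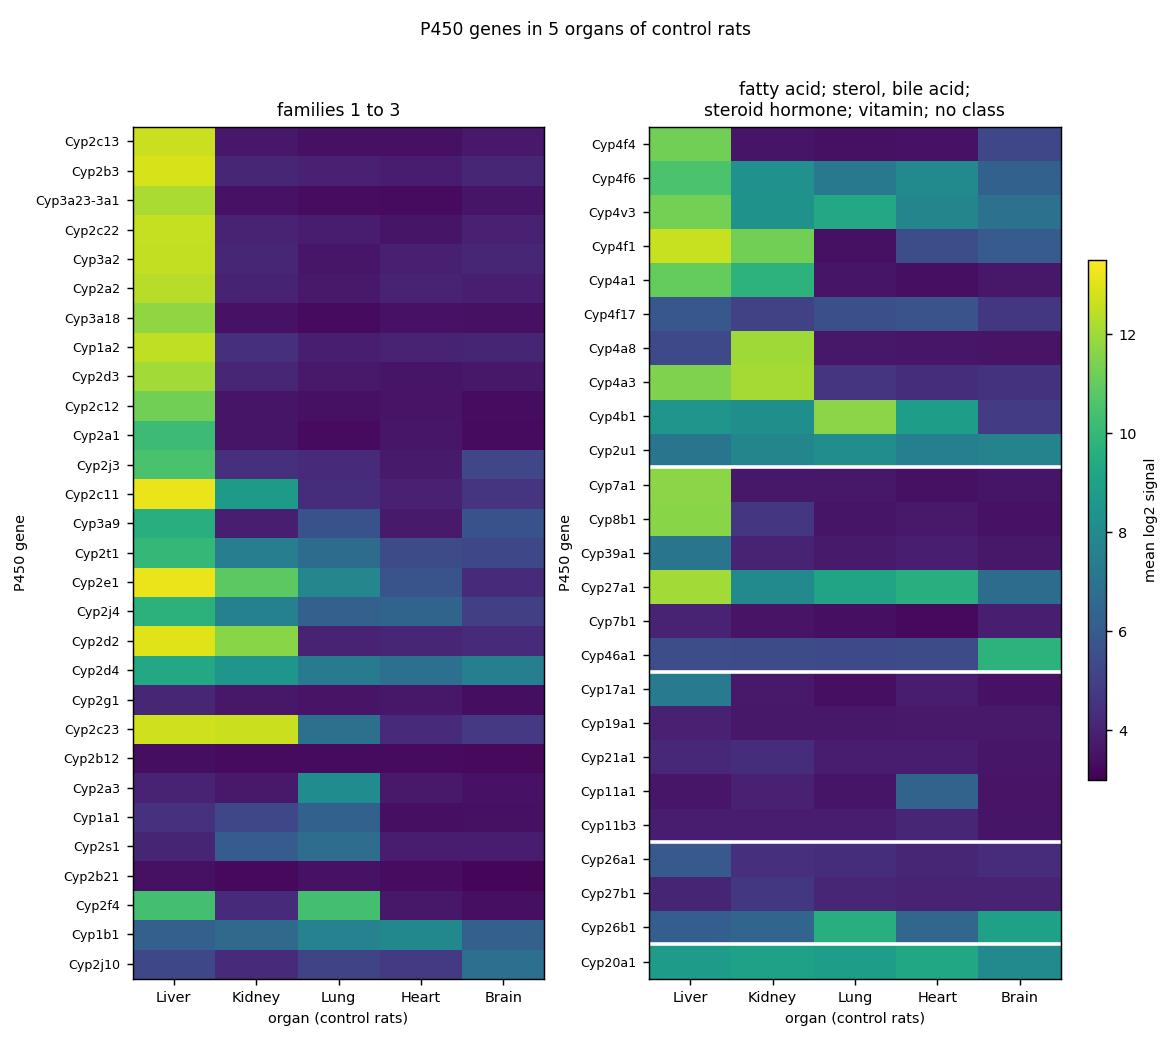
Mean log2 signal (colour) of the 54 P450 genes (rows, with white lines between roles) in Air rats of 5 organs (columns). Colours are to be compared along a row: most rows are brightest in liver, while Cyp4a8 is brightest in kidney, Cyp4b1 in lung, Cyp11a1 in heart and Cyp46a1 in brain.

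In families 1 to 3, Cyp2u1 left aside, 22 of 29 members were highest in liver. Cyp2c13, a steroid hydroxylase of male rat liver, measured 12.64 ± 0.15 there and 3.46 to 3.72 on average in the other organs. Cyp3a23-3a1 (12.18 ± 0.19) and Cyp3a2 (12.54 ± 0.24), which oxidise many drugs, stood 8.59 and 8.40 above the next organ, brain. The Air levels of all organs keep the arrays rich in hepatocyte RNA. In Air brain the means of these genes were 3.59 and 4.14 and the medians 3.32 and 3.71. Cyp1a2, which oxidises aromatic amines, measured 12.51 ± 0.06 in liver, and the gaps of Cyp1a2, Cyp2a2, Cyp2b3, Cyp2c22 and Cyp3a18 ran from 8.07 to 8.73.

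Some liver enzymes were also plain in kidney. Cyp2c11, the main male form of rat liver, measured 13.19 ± 0.13 in liver and 8.74 ± 1.12 in kidney, a gap of 4.45 ± 0.47. Cyp2e1, which oxidises ethanol and other small molecules, measured 13.19 ± 0.01 in liver, 10.87 ± 0.38 in kidney, 7.87 ± 0.49 in lung and 5.73 ± 0.81 in heart. Cyp2d2 measured 12.97 ± 0.07 in liver and 11.63 ± 0.32 in kidney. Cyp2c23, which makes epoxides of arachidonic acid, measured 12.73 ± 0.04 in liver and 12.64 ± 0.12 in kidney, a difference of 0.09 ± 0.23 that did not pass (adjusted p = 0.765, limma).

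Cyp2c12 is known as a female form of the rat liver. It measured 12.01, 9.95, 11.44 and 11.62 in the 4 male Air livers and ran from 8.01 to 12.01 over all 11 liver arrays. Genes of the Cyp2c subfamily have closely related sequences, so how far a probe set reads a single one of them is uncertain.

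Of the 5 members of families 1 to 3 highest in lung, Cyp2u1 left aside, Cyp2a3 alone did not overlap the next organ. Cyp2a3 measured 8.10 ± 0.54 in lung and 4.04 ± 0.09 in liver, the next organ. Cyp2f4, which activates naphthalene, measured 10.37 ± 0.33 in lung and 10.36 ± 0.14 in liver, a difference of 0.03 ± 0.15 (adjusted p = 0.874, limma). Cyp1a1, a target of Ahr, measured 6.24 ± 1.24 in lung and 5.25 ± 1.06 in kidney, with overlapping rats. Cyp2s1 measured 6.77 ± 0.43 in lung and 6.06 ± 0.61 in kidney. The probe set shared by Cyp2b1 and Cyp2b2, forms induced by phenobarbital, is not a member because it names more than 1 gene; it measured 12.07 ± 0.22 in lung and 10.37 ± 0.32 in liver.

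Several other members of these families were flatter. Cyp1b1 measured 7.91 ± 0.35 in heart and 7.64 ± 0.28 in lung, 0.29 ± 0.12 apart (adjusted p = 0.0235, limma) with overlapping rats. Cyp2j10 was highest in brain, at 6.82 ± 0.36 against 5.27 ± 0.27 in liver. Cyp2d4 ran from 6.83 ± 0.24 in heart to 9.33 ± 0.25 in liver. Cyp2b12 and Cyp2b21 stayed between 3.18 and 3.50 on average in every organ. Cyp2a1, Cyp2d3, Cyp2g1, Cyp2j3, Cyp2j4, Cyp2t1 and Cyp3a9 were highest in liver. Of these only Cyp2g1 was nearly flat, with a gap of 0.49 to the next organ. The other gaps ran from 2.17 (Cyp2j4) to 7.90 (Cyp2d3).

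Fatty acid hydroxylases divided between organs gene by gene. Cyp4a8 measured 12.00 ± 0.22 in kidney, 5.30 ± 0.94 in liver and 3.56 to 3.69 on average in brain, heart and lung. Cyp4a3 was high in kidney (12.08 ± 0.57) and liver (11.45 ± 0.33), and Cyp4a1 was higher in liver (11.03 ± 0.14) than in kidney (9.78 ± 0.41). Cyp4b1, which oxidises furans and short fatty acids, measured 11.66 ± 0.28 in lung and 8.85 ± 0.29 in heart.

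The Cyp4f genes act on arachidonic acid and its products. Cyp4f1 measured 12.60 ± 0.07 in liver and 11.25 ± 0.13 in kidney, and Cyp4f4 11.25 ± 0.09 in liver and 5.23 ± 0.48 in brain, the next organ. Cyp4f6 and Cyp4v3 were also highest in liver, by 2.19 and 1.88. Cyp4f17 did not separate liver from heart (adjusted p = 0.438, limma). Cyp2u1 was highest in lung (8.13 ± 0.33).

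Of the 6 sterol and bile acid enzymes, 5 were highest in liver. Cyp7a1, the rate-limiting enzyme of bile acid synthesis, measured 11.68 ± 0.28 in liver and at most 3.70 elsewhere. Cyp8b1, the sterol hydroxylase needed for cholic acid, measured 11.63 ± 0.24 in liver and 4.66 ± 0.65 in kidney. Cyp27a1, a mitochondrial sterol hydroxylase, measured 12.03 ± 0.10 in liver, 9.60 ± 0.17 in heart and 9.12 ± 0.27 in lung.

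Cyp39a1, which acts on an oxysterol, measured 7.10 ± 0.32 in liver, and Cyp7b1, which hydroxylates oxysterols, was low everywhere, with liver 0.12 ± 0.08 above brain (adjusted p = 0.199, limma). Cyp46a1, the cholesterol hydroxylase of neurons, was the exception: it measured 9.78 ± 0.37 in brain and 5.31 to 5.50 elsewhere.

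Steroid and vitamin enzymes, Cyp26b1 apart, were low in most organs. Cyp17a1, which makes androgen precursors, measured 7.30 ± 0.45 in liver and 3.43 to 3.84 on average in the others. Cyp11a1, which cleaves the side chain of cholesterol, measured 6.35 ± 0.43 in heart and 3.96 ± 0.22 in kidney. Cyp11b3, Cyp19a1 and Cyp21a1 stayed at 3.59 to 4.38 on average in all 5 organs.

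Cyp26b1, which degrades retinoic acid, measured 9.56 ± 0.85 in lung and 8.99 ± 0.24 in brain, 0.42 ± 0.24 apart in the fit (adjusted p = 0.105, limma). Its relative Cyp26a1 was highest in liver (5.93 ± 1.11). Cyp27b1, which activates vitamin D, was highest in kidney (4.71 ± 0.23). Cyp20a1 ranged from 7.99 ± 0.13 in brain to 9.24 ± 0.13 in heart.

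Exposure was examined first in the liver, where 2 of 54 members differed between PH3 and Air rats at 6 h (limma): Cyp4a8 and Cyp17a1, both higher after PH3. Over all genes 0.186% passed as higher and 0.0521% as lower (0.238% in all). The members' changes had a median of -0.12 against 0.01 over all genes, and 19 of 54 (35.2%) were above 0 against 51.5% of all genes. Of the 42 members with a mean signal of 5 or more in liver, 12 were above 0.

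Cyp4a8 is an omega-hydroxylase of fatty acids. In Air livers it measured 6.66, 4.47, 5.05 and 5.03 in rats 126, 132, 138 and 156, and in PH3 livers 7.61, 7.76, 8.44 and 7.35 in rats 128, 134, 140 and 141. Every PH3 liver lay above every Air liver. The gene rose by 2.49 ± 0.39 (5.60-fold, adjusted p = 0.0323 by limma). Its other probe set, of lower signal, averaged 4.72 in PH3 and 3.70 in Air, a change of 1.03 ± 0.20.

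Cyp17a1 measured 7.94, 6.93, 7.04 and 7.31 in the same Air livers and 8.29, 8.29, 8.60 and 8.68 in the same PH3 livers, again without overlap. The gene rose by 1.16 ± 0.20 (2.24-fold, adjusted p = 0.0412 by limma). When livers were left out 1 at a time, Cyp4a8 passed in 2 of 8 fits (change 2.21 to 2.94, adjusted p 0.00124 to 0.147, limma), without Air rat 126 and without PH3 rat 140. Cyp17a1 passed in 1 of 8 (1.04 to 1.37, adjusted p 0.00554 to 0.154), without Air rat 126, the highest Air liver for both genes.

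The 3 PH3 livers at 3 h have no Air livers of their time. In rats 105, 111 and 122 Cyp4a8 measured 7.89, 7.56 and 7.14 and Cyp17a1 7.95, 8.10 and 8.37. Both ranges overlap those of PH3 at 6 h and lie above all Air livers of 6 h. The 3′ less 5′ signals of the control transcripts, a sign of RNA length, also lay above all Air livers at 3 h: beta-actin ran from 3.47 to 4.08 against 2.93 to 3.19 in Air, and GAPDH from 1.07 to 1.48 against 0.71 to 0.93. Their part in the 3 h levels was not tested. Between PH3 livers at 6 and 3 h no member passed (limma, 0% of all genes), and 7 members had an unadjusted p under 0.05 against 8.52% of all genes. Groups did not overlap for 2 higher and 5 lower (3.59% and 3.97% of all genes). The smallest p-values were those of Cyp8b1 (0.46 ± 0.13, adjusted p = 0.395) and Cyp4a1 (-0.44 ± 0.16, adjusted p = 0.476), as the 6 h less the 3 h level. Without PH3 rat 111 the Cyp4a1 value was -0.27.

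The other Cyp4a members did not pass. Cyp4a1 measured 10.86, 11.02, 11.04 and 11.21 in Air, 11.67, 11.22, 11.50 and 11.71 in PH3 at 6 h and 11.57, 12.30 and 12.02 in PH3 at 3 h. All PH3 livers lay above all Air livers, and at 6 h the change was 0.49 ± 0.14 (adjusted p = 0.134, limma). Cyp4a3 measured 11.47, 11.76, 10.98 and 11.60 in Air and 12.13, 11.73, 12.21 and 11.98 in PH3 at 6 h, overlapping, with a change of 0.56 ± 0.15 (adjusted p = 0.111, limma). The probe set that Cyp4a2 and Cyp4a3 share changed by 0.15 ± 0.09. In kidney at 6 h, where its signal is far above that in liver, Cyp4a8 averaged 12.06 in PH3 and 11.95 in Air.

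**Figure D2:**
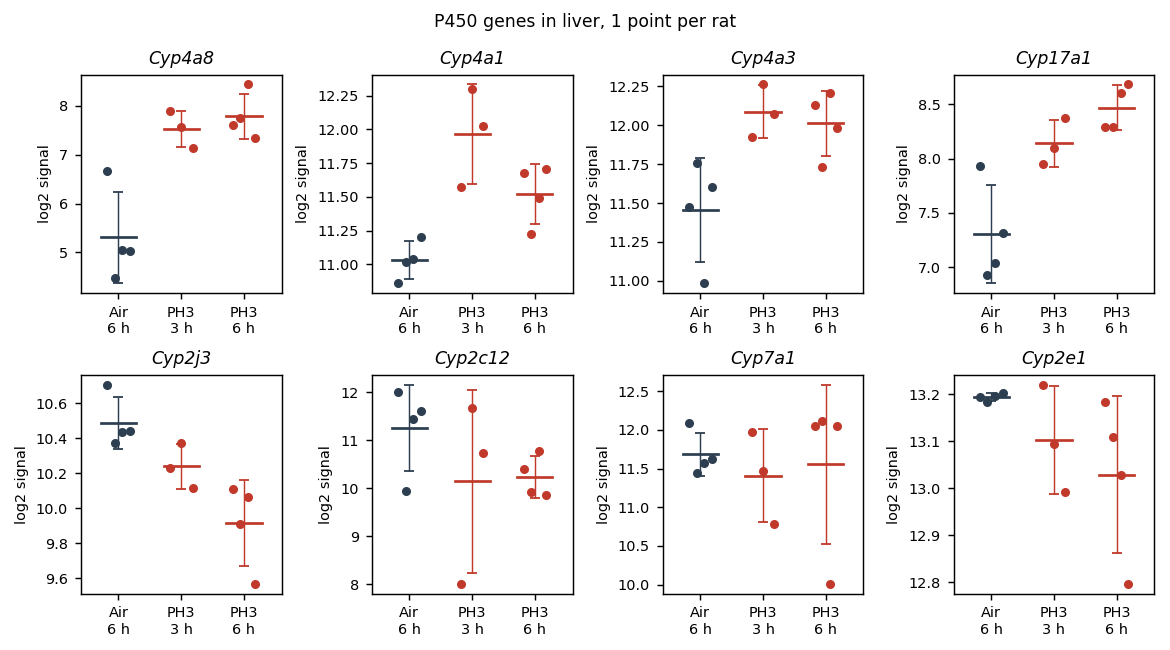
Log2 signal of 8 P450 genes in liver, 1 point per rat: Air at 6 h (4 rats, dark), PH3 at 3 h (3 rats, red) and PH3 at 6 h (4 rats, red), with means as lines and SD as bars. At 6 h every PH3 liver lies above every Air liver for Cyp4a8, Cyp4a1 and Cyp17a1 and below for Cyp2j3; the y axes do not start at 0.

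Of the 29 members of families 1 to 3 other than Cyp2u1, 9 had a change above 0 in liver and none passed. Cyp2j3, an arachidonic acid epoxygenase, measured 10.71, 10.37, 10.43 and 10.44 in Air and 10.11, 9.91, 10.07 and 9.57 in PH3 at 6 h. The groups did not overlap, and the change was -0.58 ± 0.12 (adjusted p = 0.0625, limma). Over all members, groups did not overlap for 3 higher and 6 lower (5.69% and 3.91% of all genes). The lower ones besides Cyp2j3 were Cyp2a2 (-0.30 ± 0.07), Cyp4f1 (-0.21 ± 0.06), Cyp2b3 (-0.21 ± 0.06), Cyp2d2 (-0.15 ± 0.06) and Cyp2c23 (-0.13 ± 0.06), with adjusted p-values of 0.0963 to 0.334. An unadjusted p under 0.05 was reached by 6 members that were higher and 9 that were lower, against 14.1% of all genes in both directions.

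Among the liver's bile acid enzymes Cyp7a1 measured 12.08, 11.44, 11.58 and 11.63 in Air and 12.05, 12.11, 10.01 and 12.05 in PH3, where the low value is that of rat 140. Cyp8b1 had a change of 0.39 ± 0.12 (adjusted p = 0.159, limma). Cyp2e1 measured 13.19, 13.18, 13.20 and 13.20 in Air and 13.18, 13.11, 13.03 and 12.80 in PH3 (adjusted p = 0.363, limma). Cyp2c12 measured 10.39, 9.91, 10.78 and 9.85 in PH3 and overlapped Air, with a change of -1.02. The hepatocyte mean lay between 13.06 and 13.18 on all 11 liver arrays. The beta-actin 3′ less 5′ signal was 3.03 ± 0.11 in Air and 3.31 ± 0.30 in PH3 at 6 h, and its part in these differences was not tested.

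The partners of P450 enzymes were read from a list of 53 genes, 45 of them measured. They were electron donors, haem synthesis and breakdown, receptors, Ahr targets outside the family and other drug enzymes. In liver 0 passed in either direction (limma), and their median change was -0.11. By group, with the Ahr targets left aside, an unadjusted p under 0.05 (limma) was reached by 1 higher and 2 lower of 6 electron donors. It was also reached by 2 of 10 haem genes, 4 of 15 receptors and 2 of 12 drug enzymes, all lower. The share of all genes under it was 14.1% in both directions. Por, the electron donor of the microsomal members, had a change of 0.73 ± 0.22 (adjusted p = 0.147, limma). Pgrmc1, a haem-binding partner, averaged 12.44 in PH3 and 12.68 in Air without overlap (-0.24 ± 0.05, adjusted p = 0.0699). Alas1, which starts haem synthesis, had a change of -0.48 ± 0.20 and Ppara, the receptor that drives Cyp4a genes, one of -0.26 ± 0.26 (adjusted p = 0.287 and 0.702, limma). Nr0b2, a repressor of Cyp7a1, ran from 5.19 to 9.60 in PH3 and from 8.89 to 9.59 in Air (adjusted p = 0.165, limma).

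Outside the liver no member passed in any of 15 comparisons (limma), and the smallest adjusted p was 0.129. Over all 16 comparisons 78 of 864 member tests had an unadjusted p under 0.05 (limma). The share of all genes under it ran from 1.41% (lung at 24 h) to 15.1% (heart at 6 h), so the count is read beside these shares. No member passed the limma F test for an effect of exposure that differs between times: the smallest adjusted p was 0.927 in brain, 0.416 in heart, 0.829 in kidney and 1.00 in lung. Unadjusted, 2, 6, 4 and 1 members of 54 were under 0.05, against 4.25%, 9.99%, 4.96% and 3.22% of all genes.

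**Figure D3:**
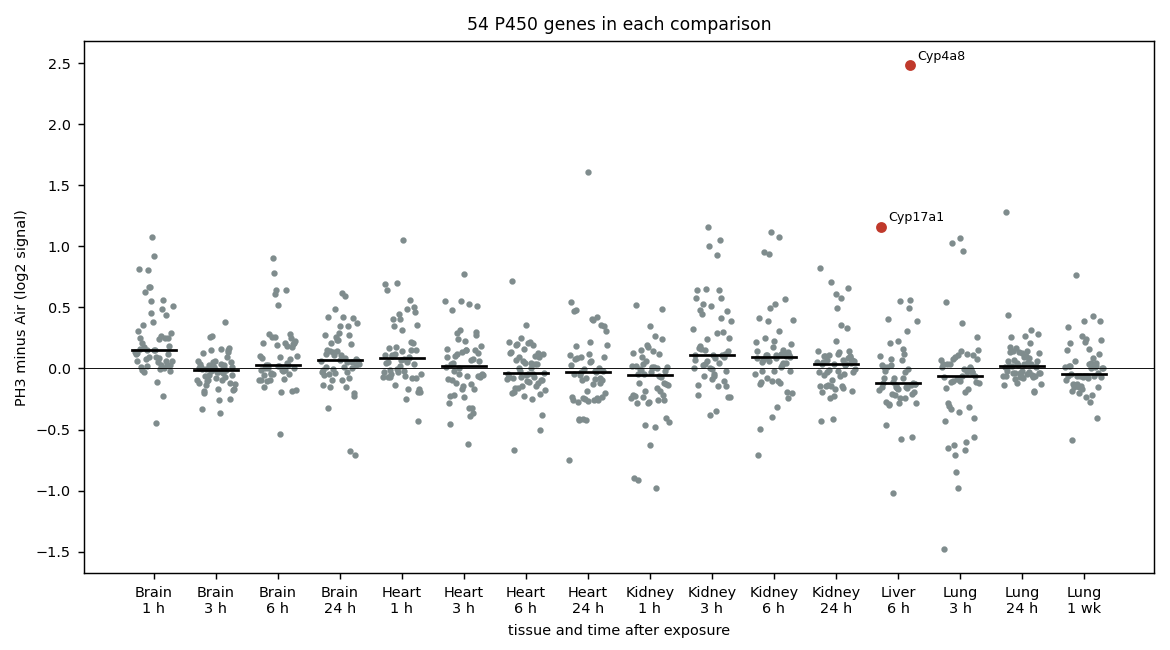
Log2 signal of PH3 less Air for each of the 54 P450 genes (points) in 16 comparisons of organ and time, with the median as a black line and members that passed in red. Cyp4a8 (2.49) and Cyp17a1 (1.16), both in liver at 6 h, are the red points.

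In brain 0 members passed at 1, 3, 6 and 24 h (limma), against 0.00744%, 0.00744%, 0.00744% and 0.0298% of all genes. An unadjusted p under 0.05 was reached by 3, 1, 1 and 8 members, against 5.19%, 4.03%, 3.21% and 12.2% of all genes. Groups did not overlap at 1 h for 4 higher and 0 lower (1.51% and 0.729% of all genes), at 3 h for 1 higher and 1 lower (0.93% and 2.02% of all genes), at 6 h for 1 higher and 2 lower (1.48% and 0.885% of all genes) and at 24 h for 1 higher and 0 lower (1.6% and 0.952% of all genes).

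At 1 h, 47 of 54 members (87.0%) were above 0 in brain against 54.2% of all genes, with a median of 0.15 against 0.01. Of the 39 members with a mean signal under 5 there, 37 were above 0, against 65.3% of all such genes. Without the 3 arrays of that time that were rich in hepatocyte RNA (2 PH3, 1 Air), 48 members were above 0 with a median of 0.17. Over all genes these were 57.6% and 0.04. The beta-actin 3′ less 5′ signal was 4.02 ± 0.45 in PH3 and 3.51 ± 0.15 in Air, and its part in this shift was not tested. Cyp1a1 had the smallest p: it measured 3.68, 3.49, 3.39 and 3.53 in Air and 3.84, 3.86, 3.86 and 3.75 in PH3, all PH3 rats above all Air rats at low signal (change 0.31 ± 0.11, adjusted p = 0.908, limma). Cyp8b1 came next at 0.52 ± 0.22, and at 0.33 with the hepatocyte mean as a covariate. At 3 h Cyp1b1 (-0.33 ± 0.13) and Cyp2j4 (-0.36 ± 0.20) had the smallest p, with overlapping rats.

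Cyp2j10 differed in opposite directions at 6 and 24 h in brain, its highest organ, without passing at either. At 6 h it measured 6.52, 7.23, 6.42 and 6.75 in Air and 6.39, 6.16, 6.36 and 5.87 in PH3, all PH3 rats below all Air rats (change -0.54 ± 0.20, adjusted p = 1.00, limma). At 24 h it measured 6.68, 6.72, 6.30 and 6.39 in Air and 7.18, 6.98, 7.47 and 6.93 in PH3, all PH3 rats above all Air rats (0.62 ± 0.20, adjusted p = 0.196, limma). The F test over the 4 times gave an unadjusted p of 0.00117 and an adjusted p of 0.927 (limma). Cyp20a1 at 6 h (-0.15 ± 0.09) and Cyp2t1 at 24 h (0.60 ± 0.21) had the next smallest p, with overlap.

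Cyp46a1 had changes of 0.01, -0.01 and 0.03 at 1, 3 and 6 h in brain, and of 0.07, -0.17 and -0.05 without the arrays rich in hepatocyte RNA. At 24 h it measured 9.71, 9.36, 10.36 and 10.36 in Air rats 83, 84, 89 and 145 and 9.59, 9.94, 8.09 and 9.45 in PH3 rats 70, 85, 91 and 149. The groups overlapped, PH3 rat 91 was the lowest, and the change was -0.68 ± 0.28 (adjusted p = 0.326, limma). Without the brain arrays rich in hepatocyte RNA, at this time Air rat 84 and PH3 rat 85, Cyp46a1 passed (-1.10, adjusted p = 0.0403), and so did Cyp26a1 (-0.58, adjusted p = 0.0439, against -0.33 and 0.409 with them), both lower. In that fit 5.24% of all genes passed, 3.24% as lower and 1.99% as higher. With the hepatocyte mean as a covariate 0 members passed (limma).

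In heart 0 members passed at 1, 3, 6 and 24 h (limma), against 0.0521%, 0.238% (0.067% higher and 0.171% lower), 2.7% and 0% of all genes. An unadjusted p under 0.05 was reached by 9, 4, 3 and 2 members, against 8.07%, 12.8%, 15.1% and 3.01%. Groups did not overlap at 1 h for 1 higher and 2 lower (1.9% and 2.34% of all genes), at 3 h for 3 higher and 0 lower (1.7% and 4.23% of all genes), at 6 h for 0 higher and 1 lower (4.76% and 5.72% of all genes) and at 24 h, with 2 Air rats, for 8 higher and 4 lower (8.91% and 12.5% of all genes).

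The smallest p in heart at 1 h were those of Cyp4f4 (0.35 ± 0.11) and Cyp4a8 (0.51 ± 0.17). Cyp4a8 measured 3.46, 3.64, 3.44 and 3.36 in Air and 3.54, 4.06, 3.86 and 4.48 in PH3, overlapping, and the highest, PH3 rat 116, had a heart array rich in hepatocyte RNA (2.04 above the heart's median). Without that array the Cyp4a8 change was 0.34, and as the mean of its probe sets 0.19. The Cyp4f4 change was 0.26 without it and 0.23 with array weights. At 3 h Cyp4b1 measured 8.85, 8.78, 8.45 and 8.83 in Air and 9.12, 9.13, 9.26 and 9.46 in PH3 without overlap, a change of 0.51 ± 0.17 (adjusted p = 0.170, limma), and of 0.34 with the adrenal marker mean as a covariate. Cyp2b12, at low signal, had a change of 0.29 ± 0.09.

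Heart at 6 h had the highest share of all genes passing among the 16 comparisons (2.7%), and 0 of 54 members passed there. At that share the 0 does not set the members apart from other genes. Cyp1b1 measured 7.54, 8.19, 7.46 and 7.82 in Air and 7.96, 8.42, 8.18 and 9.32 in PH3, overlapping (0.72 ± 0.26, adjusted p = 0.148, limma), and without PH3 rat 141, the highest, the change was 0.43. Cyp4f6 had a change of -0.38 ± 0.15. Cyp26b1 measured 5.93, 6.68, 7.13 and 6.77 in Air and 5.86, 5.36, 5.75 and 6.89 in PH3, also overlapping (-0.67 ± 0.31, adjusted p = 0.295, limma). With array weights, which count deviating arrays less, Cyp26b1 passed (-1.06, adjusted p = 0.0117), as did 5.59% of all genes.

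Among the partners, Fdx1, the mitochondrial electron donor, rose in heart at 6 h by 0.48 ± 0.08 (adjusted p = 0.00148, limma) and Pgrmc1 by 0.69 ± 0.12 (adjusted p = 0.00101), and at 1 h Cebpb rose by 1.18 ± 0.22 (adjusted p = 0.0262). These were the partner genes that passed in the 16 comparisons. The mean of the 9 measured adrenal markers, which include Fdx1, was 5.20 to 5.54 in PH3 hearts and 4.93 to 5.10 in Air hearts at 6 h, and its part in these changes was not tested. At 24 h Cyp2e1 measured 5.82 and 4.65 in Air and 6.70, 5.97 and 7.86 in PH3 without overlap (1.61 ± 0.58, adjusted p = 1.00, limma), and without Air rat 145 the change was 1.02. Cyp2a1 had a change of -0.42 ± 0.19. Air rat 84, 1 of the 2 Air hearts, was rich in hepatocyte RNA, and the Cyp2a1 change was -0.16 without rat 84 and -0.69 without rat 145.

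In kidney 0 members passed at 1, 3, 6 and 24 h (limma), against 0.223%, 0.104%, 0.126% and 0.0149% of all genes. An unadjusted p under 0.05 was reached by 5, 7, 5 and 2 members, against 9.97%, 7.28%, 7.78% and 2.37%. Groups did not overlap at 1 h for 0 higher and 1 lower (1.39% and 1.98% of all genes), at 3 h for 0 higher and 0 lower (1.61% and 1.29% of all genes), at 6 h for 1 higher and 1 lower (3.56% and 2.37% of all genes) and at 24 h for 0 higher and 2 lower (1.04% and 0.707% of all genes).

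Cyp27b1 at 6 h had the smallest adjusted p outside the liver. It measured 4.47, 4.74, 4.50 and 4.78 in Air rats 126, 132, 138 and 156 and 5.87, 5.33, 4.89 and 6.24 in PH3 rats 128, 134, 140 and 141. All PH3 kidneys lay above all Air kidneys, and the change was 0.96 ± 0.24 (1.94-fold, adjusted p = 0.129, limma). It passed with array weights (0.89, adjusted p = 0.0299) and without PH3 rat 140 (1.19, adjusted p = 0.0495), where 0.766% and 0.0893% of all genes passed. The mean of the 9 adrenal markers also lay apart, at 5.42 to 5.66 in PH3 kidneys and 5.18 to 5.29 in Air kidneys, and 9 of 9 markers had a change above 0. With that mean as a covariate the Cyp27b1 change was 0.50 (adjusted p = 0.215, limma). Because the mean itself lay apart between PH3 and Air, this fit cannot tell adrenal RNA from exposure. The part of adrenal RNA was not tested. In Air rats the same markers averaged from 5.06 in lung to 5.61 in brain over the 5 organs. At 3 h Cyp27b1 measured 4.45, 5.05, 4.48 and 4.77 in Air and 4.69, 5.47, 5.37 and 4.99 in PH3, overlapping (0.44 ± 0.24). At 1 and 24 h its changes were 0.00 ± 0.24 and -0.14 ± 0.24.

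Cyp2s1 at 6 h measured 6.19, 5.58, 5.41 and 6.28 in Air kidneys and 6.66, 7.87, 7.01 and 6.23 in PH3 kidneys, overlapping, with a change of 1.08 ± 0.39 (adjusted p = 0.414, limma). With the adrenal covariate, which has the same limit at this time, the change was 0.39. At 1 h Cyp2u1, a fatty acid hydroxylase, measured 7.66, 8.34, 8.18 and 8.52 in Air and 7.41, 6.82, 7.81 and 6.75 in PH3, overlapping (-0.98 ± 0.30, adjusted p = 0.289, limma). It passed with array weights (-1.17, adjusted p = 0.0353) and with the adrenal marker mean as a covariate (-0.94, adjusted p = 0.0464), where 0.863% and 0.67% of all genes passed. Cyp2d4 had a change of -0.62 ± 0.23 at 1 h.

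At 3 h Cyp7b1 (-0.24 ± 0.08) and Cyp4f4 (0.47 ± 0.16) had the smallest p in kidney. Cyp4f4 measured 3.55, 3.74, 3.62 and 3.49 in Air and 3.52, 3.66, 4.28 and 4.81 in PH3 rats 105, 111, 122 and 152, overlapping, and without rat 105 it passed (0.65, adjusted p = 0.0471, limma), as did 0.379% of all genes. The highest, rat 152, had the kidney array rich in hepatocyte RNA, and without rat 152 the change was 0.22 (adjusted p = 0.500, limma). With the adrenal covariate it was 0.30. With the array of rat 152, 39 of 54 members were above 0 with a median of 0.11, against 52.7% and 0.01 over all genes. Without it 34 were above 0 with a median of 0.04, against 55.7% and 0.03 over all genes. At 24 h Cyp2e1 measured 10.75, 11.24, 10.86 and 11.04 in Air and 11.58, 11.21, 11.61 and 11.94 in PH3, overlapping (0.61 ± 0.24, adjusted p = 1.00, limma), and Cyp4a3 had a change of 0.66 ± 0.32, which was 0.37 without Air rat 83.

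Cyp2c11 varied widely between kidneys of the same group. Over all 32 kidney arrays it ran from 6.38 to 10.43 with a median of 9.28, while Cyp4a8 ran from 11.51 to 12.34 and Cyp2c23 from 12.34 to 12.88. At 6 h it averaged 8.40 in Air and 9.33 in PH3, overlapping (0.94 ± 0.77, adjusted p = 0.869, limma).

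**Figure D4:**
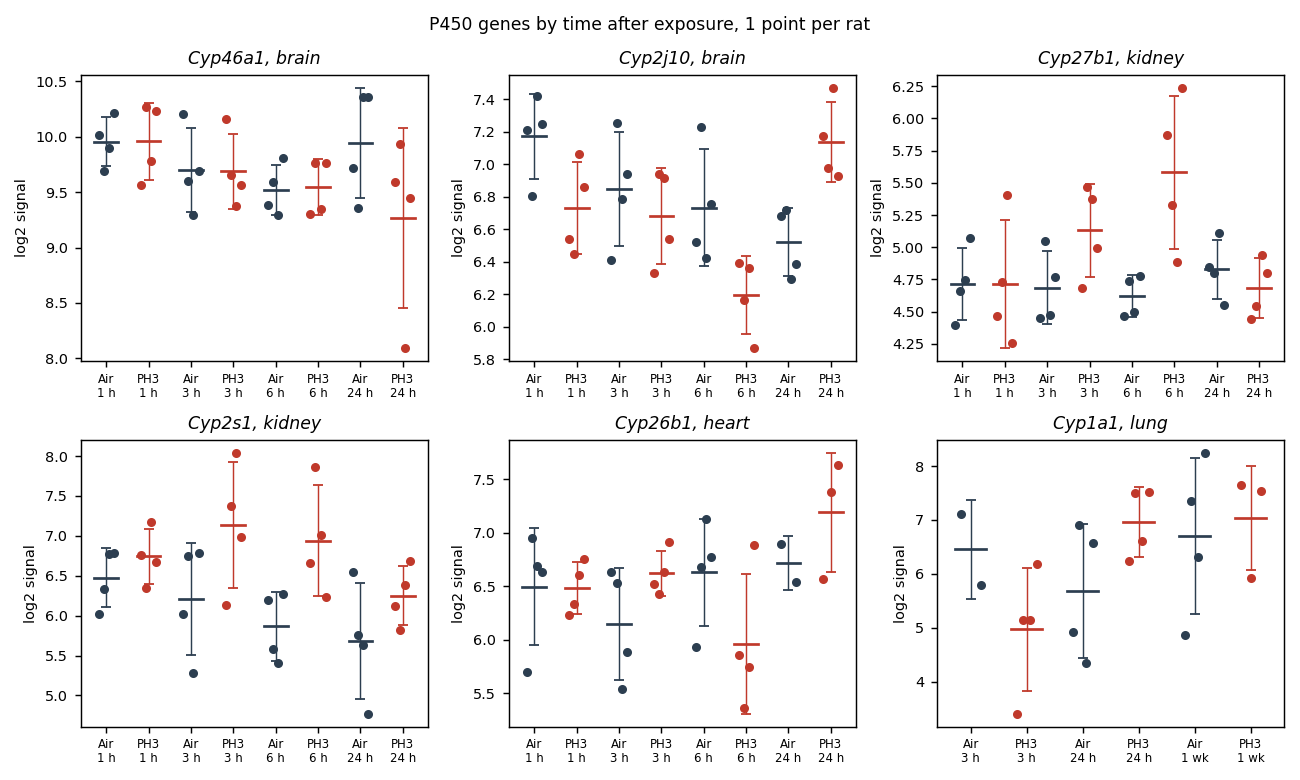
Log2 signal of 6 P450 genes by time after exposure in brain, kidney, heart or lung, 1 point per rat (Air dark, PH3 red), with means as lines and SD as bars. PH3 and Air rats do not overlap for brain Cyp2j10 at 6 and 24 h and kidney Cyp27b1 at 6 h, and overlap at every other time shown; the y axes do not start at 0.

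In lung 0 members passed at 3 h, 24 h and 1 week (limma), against 0.298%, 0% and 0% of all genes. An unadjusted p under 0.05 was reached by 11, 1 and 1 members, against 11.8%, 1.41% and 2.12%. Groups did not overlap at 3 h, with 2 Air rats, for 4 higher and 5 lower (15.3% and 26% of all genes), at 24 h for 1 higher and 0 lower (0.625% and 0.283% of all genes) and at 1 week for 1 higher and 0 lower (0.826% and 0.863% of all genes).

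Of the Air lungs at 3 h, that of rat 144 was rich in hepatocyte RNA (1.71 above the lung's median). Cyp2c13, a liver gene, measured 4.98 in rat 144, 3.16 in Air rat 150 and 3.07, 3.49, 3.06 and 3.24 in PH3 rats. Cyp2d2 measured 5.76 in rat 144, 3.50 in rat 150 and 3.28, 3.91, 3.69 and 3.73 in PH3 rats. Rat 144 stood apart in both genes. With rat 144 as the lone Air rat, assumed to vary like the other groups, Cyp2c13 (-1.76, adjusted p = 3.16e-05), Cyp2d2 (-2.11, adjusted p = 0.0151) and Cyp2b3 (-1.27, adjusted p = 0.0355) passed by limma, as did 0.216% of all genes, and with rat 150 as the lone Air rat 0 members did and these 3 changes were 0.06, 0.15 and 0.03. The members' median change was -0.06 with 20 of 54 above 0, against -0.07 and 39.4% over all genes. Without rat 144, which leaves rat 150 as the lone Air rat, it was 0.02 with 29 above 0, against -0.06 and 40.5% over all genes.

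Cyp26a1, another retinoic acid hydroxylase, measured 4.42 and 4.85 in Air lungs and 3.94, 3.89, 3.98 and 4.15 in PH3 lungs at 3 h without overlap (-0.65 ± 0.19, adjusted p = 0.174, limma), and its change was -0.86 without rat 144 (adjusted p = 0.525). Cyp2e1 measured 7.45 and 8.66 in Air and 8.65, 9.15, 9.66 and 9.02 in PH3, overlapping (1.06 ± 0.34, adjusted p = 0.227, limma), and its change was 0.46 without rat 144 and 1.67 without rat 150. Cyp2a3, the lung's own form, measured 7.89 and 8.49 in Air and 8.69, 9.57, 9.35 and 9.25 in PH3 without overlap (1.03 ± 0.42, adjusted p = 0.382, limma). With array weights 8 members passed at 3 h: Cyp26a1, Cyp2b3, Cyp2s1, Cyp2u1 and Cyp4f17 lower, and Cyp2a3, Cyp2e1 and Cyp2j3 higher. In that fit 13.3% of all genes passed as lower and 5.8% as higher (19.1% in all).

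Cyp1a1 varied widely between lungs. At 3 h it measured 7.11 and 5.80 in Air and 3.42, 5.15, 5.15 and 6.18 in PH3 (-1.48 ± 0.86, and -0.83 without rat 144), at 24 h 4.92, 6.91, 4.34 and 6.57 in Air and 6.23, 7.50, 6.60 and 7.53 in PH3 (1.28 ± 0.70), and at 1 week 4.88, 7.34, 6.32 and 8.24 in Air and 7.65, 5.93 and 7.54 in PH3 (0.34 ± 0.76). The groups overlapped at each time, and at 24 h and 1 week the Air rats spanned more than the change. Cyp1b1 (0.44 ± 0.21) and Cyp4a8 (-0.19 ± 0.09, at low signal) had the smallest p at 24 h. At 1 week Cyp4b1, the fatty acid hydroxylase highest in lung, measured 11.44, 11.86, 12.15 and 11.96 in Air and 11.48, 11.36 and 11.51 in PH3, overlapping (-0.40 ± 0.14, adjusted p = 1.00, limma), and Cyp2a3 had a change of 0.76 ± 0.37, which was 0.49 without PH3 rat 143 and 1.24 without PH3 rat 142.

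Liver P450 transcripts were seen on the arrays of other organs that were rich in hepatocyte RNA. In brain Cyp2c11 measured 8.95 in PH3 rat 85 and 7.50 in Air rat 84 at 24 h, and 3.87 to 4.56 in the other 6 rats of that time. Their hepatocyte means stood 3.69 and 3.47 above the brain's median. Of the 32 members higher in liver than in all other organs, 19 on the array of rat 85 and 16 on that of rat 84 exceeded each of the 25 brain arrays without this excess, as did 3 and 2 of the 22 other members.

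On all 11 such arrays, 4 to 19 of the 32 liver members and 0 to 4 of the 22 others exceeded every array of the organ without the excess. In kidney PH3 rat 152 at 3 h had 15 of 32, led by Cyp3a2, Cyp2c13, Cyp2c22, Cyp2b3 and Cyp3a23-3a1. In heart PH3 rat 116 at 1 h had 10 and Air rat 84 at 24 h 4, and in lung Air rat 144 at 3 h had 10. PH3 rats gave 7 of the 11 arrays and Air rats 4. Over the 10 organ pairs the number of members that differed in Air rats was 24 to 48 without these arrays and 25 to 48 with them.

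**Figure D5:**
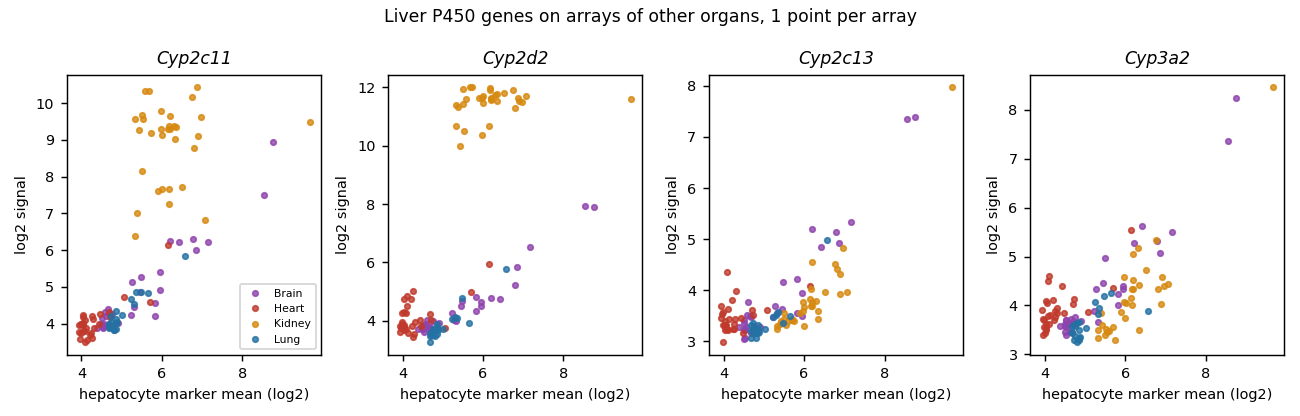
Log2 signal of 4 liver P450 genes against the mean log2 signal of 17 hepatocyte markers, 1 point per array of brain, heart, kidney and lung (colours). The 3 arrays with a hepatocyte mean above 8 are those of brain rats 84 and 85 and kidney rat 152, and they carry high Cyp2c13 and Cyp3a2 signals, while kidney Cyp2c11 and Cyp2d2 are high at any hepatocyte mean.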

How the data were processed

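Arrays were Affymetrix rat 3′ expression arrays, 125 in all, with 31139 probe sets each. The deposited values are log2 signals made by the authors with RMA, per the submitters' processing notes, and Partek and Affymetrix Expression Console are also named, with no version, there. Whether organs were normalised together is not given in the sources used here, so differences in level between organs rest on that step. Probe sets were named through the platform annotation: 19069 carry 1 symbol, 572 several and 11498 none. Probe sets with several P450 gene records (10) were tested apart, and none passed.

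For PH3 against Air, limma 3.58.1 (R 4.3.3; lmFit and eBayes with a trend) was fitted to all arrays of an organ with 1 coefficient per exposure and time group, and p-values were adjusted over 13439 genes per comparison. Air levels were fitted over all Air arrays, with an organ's level as the mean of its time groups. For each gene the probe set with the highest mean was used, over the organ's arrays or, for Air levels, over the organ means. The fits were tested on simulated data. The members and all lists were chosen with earlier results of these data known. Genes named are those that passed, otherwise the 2 with the smallest p in a comparison, the members highest or most separate in each organ, and a panel of well known P450 genes; further genes named for non-overlapping groups, for a call under an alternative or for their spread were chosen after their values were seen. The number of arrays limits the precision.

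Rat numbers in the labels pair organs of the same rat. Same-rat correlations of deviations from group means ran from -0.569 to 0.671 over organ pairs, and the fitted correlation of the rat block was -0.00751. PH3 and Air rats are different animals. Figures were drawn with matplotlib 3.10.9.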

Additional observations from a re-analysis of the deposited data

Results flagged for a closer look

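In 7 groups of 4 rats a single array lay far from the others in the mean of the 17 hepatocyte markers. These values were 6.42 in rat 96 (next 4.69) for Air brain at 1 h, 5.94 in rat 156 (next 4.53) for Air brain at 6 h, 4.72 in rat 156 (next 3.99) for Air heart at 6 h and 9.67 in rat 152 (next 6.51) for PH3 kidney at 3 h. In lung they were 5.64 in rat 148 (next 4.80) for PH3 at 3 h, 5.36 in rat 84 (next 4.88) for Air at 24 h and 5.48 in rat 185 (next 4.85) for Air at 1 week. These 7 came from tests of the marker mean in 28 groups of 4 arrays. In all 84 outlier tests were run, the others on values of named genes, where no array was marked. Chance alone marks about 1 in 20 tests.

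Exposure went with opposite signs at different times for a pair of members, with every PH3 rat beyond every Air rat at each time. Brain Cyp2j10 had a change of -0.54 at 6 h and 0.62 at 24 h (F test over times by limma, unadjusted p = 0.00117, adjusted p = 0.927). Lung Cyp20a1 had a change of -0.16 at 3 h (-0.10 without Air rat 144, whose lung array was rich in hepatocyte RNA) and 0.21 at 1 week (unadjusted p = 0.145, adjusted p = 1.00, limma). Neither difference between times passed. In lung at 3 h, with 2 Air rats, 26% of all genes had every PH3 rat below every Air rat, and 0.826% had every PH3 rat above at 1 week. In brain these shares were 0.885% below at 6 h and 1.6% above at 24 h.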

How the results depend on the processing

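None of the 34 gene changes named for passing or for the smallest p changed sign under the alternatives, and no member that differed between Air organs did so in the opposite direction. The members' median change, also taken without arrays rich in hepatocyte RNA, did turn in lung at 3 h (above) and in heart at 24 h, from -0.03 to 0.01. Of the counts of members recomputed under alternatives, 351 stayed within 1.5 times of the main count, 10 became larger and 19 smaller. Of the changes of named genes 525 kept their side of the threshold, 8 gained and 15 lost a call. Most named changes had no call to lose, and all 15 losses were of Cyp4a8 and Cyp17a1 in liver at 6 h. With 1 liver left out, Cyp4a8 kept its call in 2 of 8 fits and Cyp17a1 in 1 of 8. Under the other alternatives they kept it in 6 of 7 and 5 of 6. The counts that moved were, in liver at 6 h, 0 with no trend in eBayes and 1 with a family number of exactly 1 digit (42 members, without Cyp17a1). With array weights 1 member passed in heart at 6 h, 1 in kidney at 1 h, 1 in kidney at 6 h and 8 in lung at 3 h. In kidney at 1 h 1 passed with the adrenal mean as a covariate, in lung at 3 h 1 with the groups alone (Cyp26a1), and in brain at 24 h 2 without arrays rich in hepatocyte RNA. Leaving out 1 rat at a time gave 0 to 1 in kidney at 3 h (1 without PH3 rat 105) and at 6 h (1 without PH3 rat 140), 0 to 2 in liver at 6 h (2 without Air rat 126) and 0 to 3 in lung at 3 h (3 without Air rat 150). Some fits of array weights stopped before full convergence. The cause of these moves was not tested.

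For Air organs, dropping the genes of lowest mean signal left 24 members to test, so fewer differed. In the order brain-heart, brain-kidney, brain-liver, brain-lung, heart-kidney, heart-liver, heart-lung, kidney-liver, kidney-lung and liver-lung the counts were 16, 21, 23, 14, 18, 22, 15, 21, 21 and 21, against 30, 41, 48, 25, 32, 47, 26, 47, 37 and 44 with all members. With the replicate block (rat) these were 30, 41, 48, 25, 32, 47, 26, 46, 37 and 44, and the block changed no count by more than 1.5 times. PH3 and Air rats are different animals, so no block applies there. Groups of 2 to 4 arrays limit what could be detected, and low signals near the array's floor understate changes.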
